A study of Mus musculus with 9 samples.

Results

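Mitochondrial DNA (mtDNA) is transcribed and copied entirely by proteins that are encoded in the nucleus. The mRNAs of 10 of these factors, Polrmt, Tfam, Tfb2m, Tfb1m, Tefm, Lrpprc, Twnk, Polg, Polg2 and Ssbp1, were followed in RNA-seq libraries of differentiated mouse pluripotent stem cells with NRF1 overexpression (NRF1 OE). They were chosen by gene symbol and not by their values. All 10 were found among the 56691 genes of the deposited tables, and all 10 passed the filter on low counts that left 16903 genes for testing. The cells were of the line BVSC, which carries a Blimp1-mVenus reporter (BV) for primordial germ cell-like cells (PGCLCs) and a Stella-CFP reporter, and they were differentiated as embryoid bodies. All groups carried a doxycycline-inducible p20 vector and received 1.5 μg/mL doxycycline from day 2 to day 5 of differentiation. The vector held Nrf1 in NRF1 OE and was empty in Ctrl. There were 2 libraries of BV+ NRF1 OE, 2 of BV+ Ctrl, 3 of BV- NRF1 OE and 2 of BV- Ctrl. BV+ cells are the sorted PGCLCs and BV- cells the remaining somatic cells, sorted on day 5 per the study's methods, which give the day for BV+ cells. All libraries came from 1 cell line, and whether it was a single clone was not given in the sources used here. The methods call the replicates biological, and the labels do not say that they were separate cultures.

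Transcription of mtDNA starts when POLRMT, the mitochondrial RNA polymerase, is brought to a promoter by TFAM and opens it with the help of TFB2M. TFAM also coats mtDNA and packs it into nucleoids. TEFM keeps the polymerase moving, and LRPPRC binds and stabilises the mRNAs that result. TFB1M, a relative of TFB2M, methylates the RNA of the small mitochondrial ribosomal subunit. For replication, the helicase Twinkle (Twnk) unwinds mtDNA, the polymerase POLG copies it together with its accessory subunit POLG2, and SSBP1 covers the single strands. NRF1 and the ETS factor GABP are textbook regulators of nuclear genes for mitochondrial proteins, and primordial germ cells are known for a small mtDNA pool that expands as they multiply.

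Because NRF1 was the factor overexpressed, the promoters of the 10 genes were searched for the core letters of the NRF1 motif (GCGCANGCG), the ETS motif bound by GABP (CCGGAAG) and the SP1 motif (GGGCGG), on both strands. The windows held 250 bases before and 50 bases after each annotated start and came from RefSeq on GRCm38.p6, whereas the reads had been mapped to GRCm39. The NRF1 letters were found at 2 of the 10 genes, Tfb2m and Polrmt, and in 6.25% of all 32851 promoter windows. The ETS letters were found at 7 of the 10 genes and in 8.86% of all windows. The SP1 letters were found at 7 of the 10 genes and in 35.7% of all windows. In Polrmt the NRF1 letters matched at 2 places that overlap each other, one of them across the start. The promoters shown are those of the 3 genes that passed the test in a comparison of NRF1 OE with Ctrl (Tfam, Tfb2m and Polg) and that of Polrmt, with the NRF1 or ETS letters of either strand in capitals. All 4 are on the minus strand of GRCm38.p6 and are written 5′ to 3′ along the gene, Tfam at chr10:71238045-71238164, Tfb2m at chr1:179546256-179546376, Polrmt at chr10:79746572-79746681 and Polg at chr7:79466274-79466393.
Tfam: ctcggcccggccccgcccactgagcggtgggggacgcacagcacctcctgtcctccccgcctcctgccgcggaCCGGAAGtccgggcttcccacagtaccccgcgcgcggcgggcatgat
Tfb2m: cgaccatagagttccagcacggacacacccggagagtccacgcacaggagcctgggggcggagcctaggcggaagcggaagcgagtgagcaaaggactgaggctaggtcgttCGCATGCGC
Polrmt: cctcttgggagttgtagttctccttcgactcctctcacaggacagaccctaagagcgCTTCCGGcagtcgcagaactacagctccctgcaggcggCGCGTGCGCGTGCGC
Polg: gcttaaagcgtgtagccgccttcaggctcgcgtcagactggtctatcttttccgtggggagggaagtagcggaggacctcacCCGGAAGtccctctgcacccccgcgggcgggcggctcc
The capitals are the ETS letters in Tfam and Polg, the NRF1 letters in Tfb2m, and first the ETS and then the overlapping NRF1 letters in Polrmt. A match in these windows is a description of the sequence only.

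Total counts per library lay between 13702162 and 19625460. Nrf1 itself, counted over the whole gene and so including the vector's copy, was at 91.1 and 90.4 CPM (the count scaled to the depth of its library after TMM normalisation) in BV+ Ctrl and at 95.7 and 99.4 in BV+ NRF1 OE. In BV- cells it was at 99.1 and 105 CPM in Ctrl and at 119, 122 and 126 in NRF1 OE. The log2 fold change was 0.10 ± 0.10 (SE) in BV+ and 0.26 ± 0.10 in BV- libraries. The adjusted p was 0.489 and 0.0718 by edgeR's quasi-likelihood test, so this difference was small and passed the test in neither. With the offsets for GC content and length introduced below, Nrf1 was at 0.66 ± 0.13 in BV- libraries (adjusted p = 0.0423 by edgeR) and was not called in BV+. The sort labels were also checked against markers fixed by list, with Prdm1 and the summed levels in CPM without TMM scaling. Prdm1, which encodes Blimp1, was at 52.7 to 64.3 CPM in the 4 libraries labelled BV+ and at 42.0 to 60.8 in the 5 labelled BV-. The summed level of 9 germ cell markers was 644 to 702 CPM in the libraries labelled BV+ and 709 to 919 in those labelled BV-, and at NRF1 OE 4 of the 9 were called lower in BV+, where 13.8% of all genes were called in either direction. The summed level of 6 fibroblast markers was 214 to 1189 CPM in BV+ and 56.1 to 114 in BV- libraries. Most of this sum came from Col1a2 and Acta2, and at NRF1 OE the 3 collagens and Acta2 were called higher in BV+. The other fibroblast markers did not go that way, with BV+ over BV- folds at Ctrl and at NRF1 OE of 0.934 and 0.685 in Thy1 and of 0.953 and 1.04 in Pdgfra. No marker of either list was at 0. At NRF1 OE, 2 of 5 neuroectoderm markers were called higher in BV+, Nes at a log2 difference of 2.96 and Sox1 at 0.93. Of 4 mesoderm markers tested, Hand1 was called higher at 4.11, with a mean of 3.04 CPM in BV+. Of 6 endoderm markers Afp was called lower, as were Pou5f1 and Esrrb of 6 pluripotency markers. Pou5f1 was at a mean of 998 CPM in BV- Ctrl and 1249 in BV- NRF1 OE, against 834 and 873 in BV+. At Ctrl, Nes alone of these further lists was called, at 1.94. The names BV+ and BV- therefore stand below for the labels of the libraries.

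How counts followed the base composition of transcripts also varied from library to library. The deviation of each library from the average library was ranked against GC content over 11335 genes, which are no replicates of one another. In BV- NRF1 OE the rank correlation rho was 0.08, 0.71 and 0.63 in replicates 1 to 3, and in BV+ NRF1 OE it was 0.35 and -0.02. All 4 Ctrl libraries had a negative rho, from -0.63 to -0.55. The GC content of the 10 factors ran from 41.0% in Ssbp1 to 60.5% in Polrmt. Each comparison of NRF1 OE with Ctrl is therefore also given with offsets that remove the dependence of every library on GC content and on gene length.

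In the BV- cells, NRF1 OE went with a lower level of 2 transcription factors of mtDNA, Tfam and Tfb2m, and with a higher level of the replicative polymerase Polg, each by less than 1.5-fold. In BV+ cells none of the 10 factors passed the test. No factor changed by the size the study required (a log2 fold change beyond 0.58 in either direction and an unadjusted p under 0.05) in either population. The calls in BV- cells rested on few libraries and on the scaling, as given below for each. In bulk libraries fewer cells of a type and less RNA per cell cannot be told apart. Germ cell markers moved in the same comparison, with 5 of 9 called higher in BV- NRF1 OE (17.2% of all genes were called). Their summed level was 709 and 720 CPM in BV- Ctrl against 838 to 919 in BV- NRF1 OE. Of the 9, Prdm1 (-0.08) and Prdm14 (-0.09) had log2 fold changes below 0. With the offsets 2 of the 9 were called. Of the other marker lists in BV- cells, Esrrb, Col3a1 and Acta2 were called higher and Klf4, Zfp42, Gata6 and Pdgfra lower. With the offsets none of those higher was called, those lower still were, and Gata4 was called lower as well. In BV+ cells 4 of 6 fibroblast markers were called higher with NRF1 OE (8.02% of all genes were called), with a summed level of 214 and 218 CPM in Ctrl against 718 and 1189 that was carried by Col1a2 and Acta2. Pdgfra of the same list was called lower, at -1.17 (adjusted p = 0.0174 by edgeR), and Thy1 was at -0.38. With the offsets the same 4 markers were called higher and Pdgfra lower. In BV+ cells Dppa3 of the germ cell list and Nes were also called higher, and Klf4 and Zfp42 lower, with and without the offsets. Sox2 was called lower only with them. The counts of all genes called with the offsets are given below. The part of cells with any of these markers in the results was not tested.

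Among the factors that start transcription, Tfam was at 117 and 115 CPM in BV- Ctrl and at 97.3, 86.8 and 89.7 in BV- NRF1 OE. All 3 NRF1 OE libraries lay below both Ctrl libraries. The fold change was 0.789, a log2 value of -0.34 ± 0.10 (SE; 95% interval -0.56 to -0.12; adjusted p = 0.0435 by edgeR). In BV+ cells Tfam was at 108 and 108 CPM in Ctrl and at 92.4 and 103 in NRF1 OE, with a log2 fold change of -0.15 ± 0.11 that did not pass the test (adjusted p = 0.365). With the GC and length offsets the difference in BV- cells was -0.07 (adjusted p = 0.575), and that in BV+ cells turned to 0.06.

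Tfb2m, which opens the promoter for the polymerase, had the lowest counts of the initiation factors, 82 to 180 reads per library. It was at 9.77 and 9.61 CPM in BV- Ctrl and at 7.71, 6.04 and 6.04 in BV- NRF1 OE. The groups did not overlap, and the log2 fold change of -0.55 ± 0.16 passed the test (fold 0.682; adjusted p = 0.0435 by edgeR). In BV+ cells the values were 8.72 and 9.07 CPM in Ctrl and 6.65 and 6.31 in NRF1 OE. The groups were again apart, but the log2 fold change of -0.46 ± 0.18 did not pass (adjusted p = 0.112 by edgeR). With the offsets Tfb2m stayed below Ctrl at -0.23 in BV- and -0.24 in BV+ cells, with adjusted p of 0.32 and 0.304.

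Polrmt, the RNA polymerase and the most GC-rich of the 10 transcripts, was at 39.5 and 40.8 CPM in BV- Ctrl and at 45.2, 57.8 and 53.7 in BV- NRF1 OE. The log2 fold change was 0.38 ± 0.13 and just missed the threshold (adjusted p = 0.0563 by edgeR). In BV+ cells it was at 39.4 and 36.6 CPM in Ctrl and at 42.6 and 39.7 in NRF1 OE, which were apart by a small margin (log2 fold change 0.12 ± 0.14). The 2 BV- NRF1 OE libraries with the highest Polrmt were replicates 2 and 3, the same that had a rho with GC content of 0.71 and 0.63. With the offsets the log2 fold change of Polrmt turned to -0.05 in BV- and to -0.22 in BV+ cells.

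**Figure D1:**
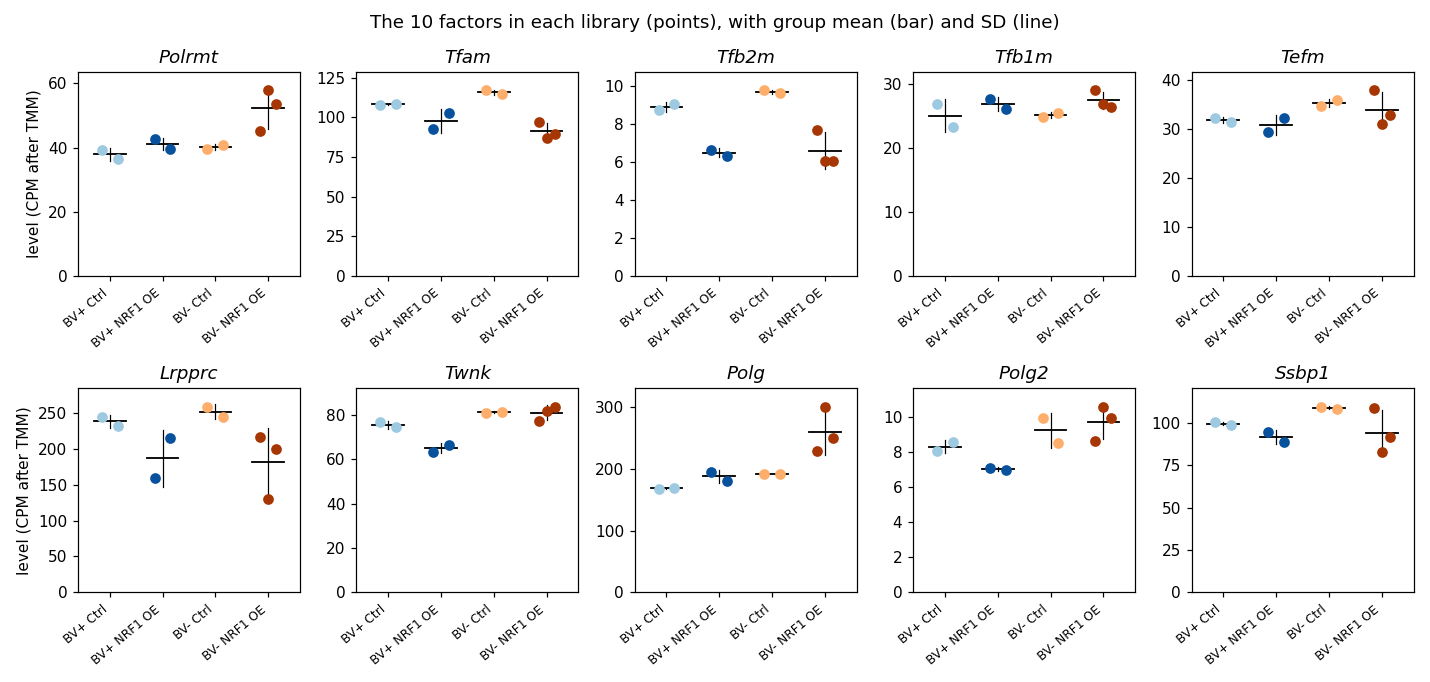
Level of each of the 10 factors in CPM after TMM scaling (vertical axes, from 0) in the 4 groups (horizontal axes). Points are libraries, bars group means and lines 1 SD. Tfam and Tfb2m lay lower and Polg higher in all BV- NRF1 OE libraries than in BV- Ctrl, and Lrpprc spread from 130 to 217 CPM within BV- NRF1 OE.

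The factors that act after initiation did not pass the test in either population. Tfb1m, the ribosomal RNA methylase, had a range of 23.2 to 29.0 CPM over the 9 libraries and log2 fold changes of 0.10 ± 0.13 in BV+ and 0.13 ± 0.12 in BV- cells. With the offsets Tfb1m was at 0.35 in BV+ (adjusted p = 0.126 by edgeR) and at 0.49 in BV- cells (adjusted p = 0.0573), the largest value of any factor in BV- cells with the offsets. Tefm, the elongation factor, ranged from 29.4 to 37.9 CPM, with log2 fold changes of -0.04 ± 0.13 and -0.05 ± 0.12 that turned to 0.05 and 0.10 with the offsets. The 95% interval of the Tefm difference was -0.34 to 0.25 in BV+ and -0.32 to 0.21 in BV- cells. A difference of any size within those intervals was compatible with these libraries.

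Lrpprc, which stabilises mitochondrial mRNAs, had the largest spread between replicates. It was at 259 and 244 CPM in BV- Ctrl and at 217, 130 and 200.1 in BV- NRF1 OE. In BV+ cells it was at 245 and 232 CPM in Ctrl and at 159 and 215 in NRF1 OE. Every NRF1 OE library lay below the Ctrl libraries of its population, yet the log2 fold changes of -0.46 ± 0.19 in BV- and -0.35 ± 0.21 in BV+ cells did not pass the test (adjusted p = 0.0966 and 0.257 by edgeR). The lowest value in each population came from the NRF1 OE library with the highest rho of counts with GC content. With the offsets, which remove the trends over GC content and length together, the log2 fold changes were -0.23 and -0.15. The part of either trend in the result was not tested.

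Among the replication factors, Polg was at 192 and 192 CPM in BV- Ctrl and at 229, 301 and 250.1 in BV- NRF1 OE. This was a rise of 1.36-fold (log2 0.44 ± 0.12; 95% interval 0.18 to 0.70; adjusted p = 0.0374 by edgeR). In BV+ cells Polg was at 168 and 169 CPM in Ctrl and at 195 and 181 in NRF1 OE, apart but not called (log2 0.16 ± 0.13; adjusted p = 0.404). With the offsets the values were 0.38 in BV- cells (adjusted p = 0.0602) and 0.12 in BV+ cells, so the size of the difference in BV- cells changed little while the call was lost. In the GRCm38 annotation Polg shares 4034 bases with Fanci, a DNA repair gene on the opposite strand, and whether counting used the strand is not stated. Fanci itself was at 122 and 118 CPM in BV- Ctrl and at 108, 78.3 and 104 in BV- NRF1 OE, lower where Polg was higher.

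The accessory subunit Polg2 was a low transcript with 123 to 168 counts per library. It was at 8.06 and 8.60 CPM in BV+ Ctrl, at 7.11 and 6.97 in BV+ NRF1 OE, at 9.96 and 8.55 in BV- Ctrl and at 8.67, 10.6 and 9.95 in BV- NRF1 OE. The log2 fold changes of NRF1 OE, -0.24 ± 0.17 in BV+ and 0.07 ± 0.16 in BV- cells, did not pass the test. The groups were apart in BV+ cells and overlapped in BV- cells. With the offsets Polg2 was at -0.10 and 0.24, again not called. Twnk, the helicase, was at 76.8 and 74.3 CPM in BV+ Ctrl and at 63.3 and 66.4 in BV+ NRF1 OE, whereas in BV- cells it was at 81.0 and 81.5 in Ctrl and at 77.2, 81.9 and 83.7 in NRF1 OE. The groups were apart in BV+ cells with a log2 fold change of -0.22 ± 0.11 (adjusted p = 0.179 by edgeR). The offsets moved Twnk further down, to -0.40 with an adjusted p of 0.0163 in BV+ cells and to -0.27 with an adjusted p of 0.0553 in BV- cells. Twnk overlaps Mrpl43, a mitochondrial ribosomal protein gene on the opposite strand, by 780 bases. Mrpl43 was at 34.7 and 31.6 CPM in BV+ Ctrl and at 39.1 and 37.2 in BV+ NRF1 OE.

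Ssbp1, the single-strand binding protein and the transcript with the lowest GC content, was at 101 and 99.1 CPM in BV+ Ctrl and at 94.9 and 88.9 in BV+ NRF1 OE. In BV- cells it was at 109.8 and 109 CPM in Ctrl and at 109, 82.8 and 91.7 in NRF1 OE, where the groups overlapped. The log2 fold changes of -0.12 ± 0.13 and -0.21 ± 0.12 did not pass the test, and with the offsets they turned to 0.26 and 0.36. Polrmt and Ssbp1, at the ends of the GC range, were the factors whose direction turned by the most with the offsets in BV- cells. The offsets remove the trends over GC content and length together, and the part of each was not tested.

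**Figure D2:**
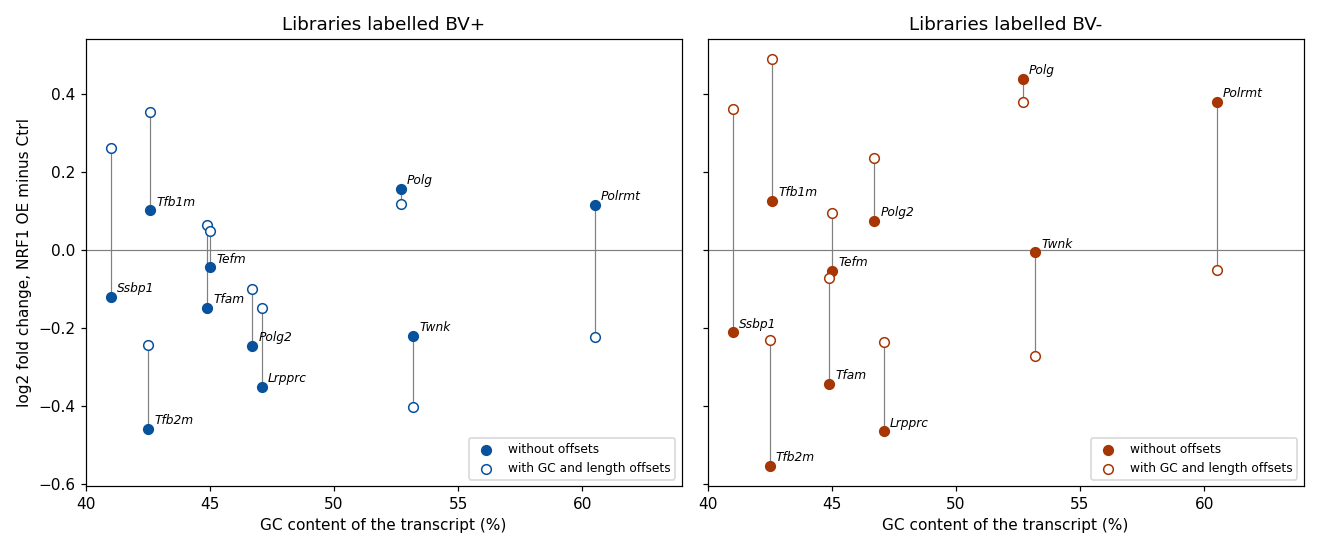
Log2 fold change of NRF1 OE minus Ctrl (vertical axis) against the GC content of the transcript in percent (horizontal axis) for the 10 factors, in BV+ (left) and BV- (right) libraries. Filled points are without and open points with offsets for GC content and length, joined by a line per gene. In BV- libraries Polrmt moved from 0.38 to -0.05 and Ssbp1 from -0.21 to 0.36, whereas Polg moved from 0.44 to 0.38.

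Over the whole list, 0 of the 10 factors were called in BV+ cells at an adjusted p under 0.05, where 8.02% of the 16903 genes tested were called. By unadjusted p under 0.05, 1 factor (Tfb2m) passed in edgeR, against 5487 of the 16903 genes, and DESeq2 also called 0 factors. In BV- cells 3 of 10 were called, 1 higher and 2 lower, against 17.2% of all genes. A further 2, Polrmt and Lrpprc, had an unadjusted p under 0.05, against 6606 of the 16903 genes with one, and DESeq2 called 3 factors. With the offsets 1 factor (Twnk, lower) was called in BV+ and 0 in BV- cells, among 1815 and 782 genes called in all. That fit held at most the 14831 genes with a known GC content, so these counts are not out of 16903. By the study's threshold 0 of 10 passed in either population, against 17.0% of all genes in BV+ and 16.0% in BV- cells. The median log2 fold change of the factors was -0.13 in BV+ and -0.03 in BV- cells, and that of all genes tested was 0.04 and 0.0092.

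The factors were also counted by whether the libraries of the groups overlapped. In BV+ cells 6 of 10 were lower in both NRF1 OE libraries than in both Ctrl libraries, and 2, Polrmt and Polg, were higher, where 32.0% of all genes were apart and lower and 38.1% apart and higher. In BV- cells 3 (Tfam, Tfb2m and Lrpprc) were lower and 3 (Tfb1m, Polrmt and Polg) higher in every NRF1 OE library, against 27.6% and 29.4% of all genes. Groups that do not overlap were therefore common among all genes, and the directions of Polrmt in both populations and of Tfam and Ssbp1 in BV+ cells turned with the offsets.

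The calls in BV- cells depended on single libraries. With 1 library left out, the number of factors called was 0 without BV- NRF1 OE replicate 3 and without any of the 4 Ctrl libraries. It was 1 (Tfam) without BV- NRF1 OE replicate 2, and it was 3 without either BV+ NRF1 OE library. Without BV- NRF1 OE replicate 1, whose rho with GC content was the lowest of its group, it rose to 6, with Polrmt, Ssbp1 and Lrpprc added. Over all 16903 genes, the number called in these fits ranged from 0 to 5847, against 2910 with all libraries. It was also highest without BV- NRF1 OE replicate 1, so the rise was not particular to the factors. The log2 fold change itself stayed between -0.39 and -0.33 for Tfam, between -0.68 and -0.50 for Tfb2m and between 0.29 and 0.52 for Polg, and the adjusted p ran up to 0.313, 0.311 and 0.311. In BV+ cells the count of factors rose to 1 (Lrpprc) without BV- NRF1 OE replicate 2 and was 0 without each other library. All genes called there ranged from 0 to 4957.

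**Figure D3:**
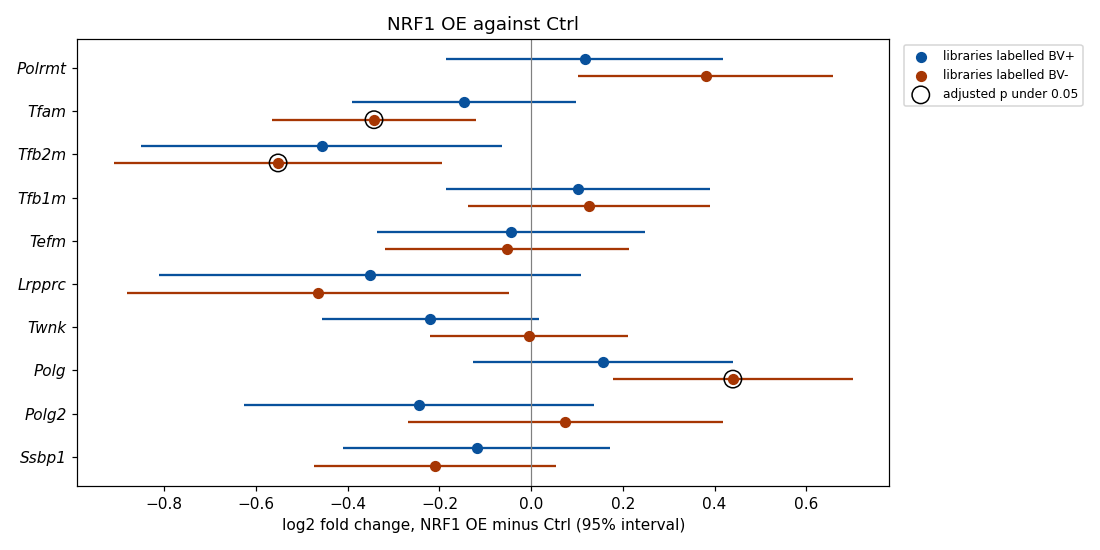
Log2 fold change of NRF1 OE minus Ctrl (horizontal axis) for each of the 10 factors, in BV+ (upper point of each pair) and BV- libraries (lower point). Lines are 95% intervals from the edgeR fit and circles mark an adjusted p under 0.05. The 3 circled values are Tfam at -0.34, Tfb2m at -0.55 and Polg at 0.44, all in BV- libraries, and none is circled once the GC and length offsets are used there.

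Next, the libraries labelled BV+ were compared with those labelled BV-. At Ctrl all 10 factors had a lower mean in BV+, by between -0.19 (Polg) and -0.0076 (Tfb1m) on the log2 scale. None was called, at adjusted or at unadjusted p, by edgeR, and DESeq2 called 0, where 1.12% of all genes were called. At unadjusted p under 0.05, 1314 of the 16903 genes passed. By the study's threshold 0 of 10 passed against 5.74% of all genes. In 7 of the 10 both BV+ libraries lay below both BV- libraries, against 25.4% of all genes that were apart and lower, and 0 were apart and higher, against 22.6%. The difference was -0.19 ± 0.13 (SE) in Polg, -0.15 ± 0.13 in Tefm and -0.10 ± 0.11 in Tfam.

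At NRF1 OE, Polg was lower in BV+ than in BV- cells with a fold of 0.722 (log2 -0.47 ± 0.12; adjusted p = 0.0231 by edgeR), and it was the only factor called, of 10, against 13.8% of all genes. The helicase Twnk, the accessory subunit Polg2 and the RNA polymerase Polrmt were next, with log2 differences of -0.32, -0.47 and -0.34 and adjusted p of 0.0554, 0.0778 and 0.0993. These 4 were also the factors whose libraries did not overlap, all lower in BV+, where 19.5% of all genes were apart and lower. No factor was apart and higher, against 20.3% of all genes. By the study's threshold 0 of 10 passed, against 14.7%. With the offsets Polg was still lower at -0.46 with an adjusted p of 0.0121. The call was lost without BV+ NRF1 OE replicate 1 (adjusted p = 0.0991), without BV+ NRF1 OE replicate 2 (0.131), without BV- NRF1 OE replicate 3 (0.0686) and without BV- Ctrl replicate 2 (0.0605). Without BV- NRF1 OE replicate 1 all 4 were called.

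The effects of NRF1 OE in the 2 populations share no libraries, and their difference was tested directly. No factor and no gene at all was called for it (0.0% of 16903). At unadjusted p under 0.05 the test passed 0 of the 10 factors and 932 of all genes, and DESeq2 called 0 factors and 22 genes. The largest differences, BV+ minus BV-, were -0.32 ± 0.23 in Polg2, -0.28 ± 0.18 in Polg and -0.26 ± 0.19 in Polrmt. For Polg the 95% interval ran from -0.67 to 0.10. The effect in BV- cells was thus not shown to differ from that in BV+ cells for any factor.

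The level of the factors relative to one another was compared per length, as deposited FPKM. Lrpprc was highest, with a mean of 24.9 FPKM over the 9 libraries, and it was followed by Tfam (23.0), Tefm (21.1), Polg (19.3) and Twnk (19.0). Ssbp1 came next at 11.8, then Polrmt at 9.34 and Tfb1m at 7.25. Tfb2m at 2.77 and Polg2 at 2.00 FPKM were lowest. The mRNA of the promoter-opening factor was thus less abundant than that of the polymerase it works with. The mRNA of the accessory subunit was less abundant than that of the catalytic subunit, and the proteins were not measured. Neighbours among these first 5 did not differ beyond the spread of the libraries, as Lrpprc was above Tfam in 7, Tfam above Tefm in 6, Tefm above Polg in 7 and Polg above Twnk in 5 of 9 libraries. The steps from Twnk to Ssbp1, from Polrmt to Tfb1m and from Tfb1m to Tfb2m were seen in 9 of 9 libraries.

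This order depended on the length used. The gene length that the deposited FPKM and counts imply is 8359 bases for Ssbp1, whereas its longest coding transcript in the GRCm38 annotation has 4398. Per kilobase of the longest coding transcript Lrpprc remained first, Polg moved to rank 2 and Tfam to rank 4, and Polg2 rose above Tfb2m. Ssbp1 rose above Twnk and Tfb1m above Polrmt, so that 2 of the 3 steps seen in 9 of 9 libraries were reversed with this length. Within a gene, the highest library exceeded the lowest by 2.00-fold in Lrpprc, 1.79-fold in Polg and 1.62-fold in Tfb2m, and by 1.25-fold in Tfb1m, which varied least.

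**Figure D4:**
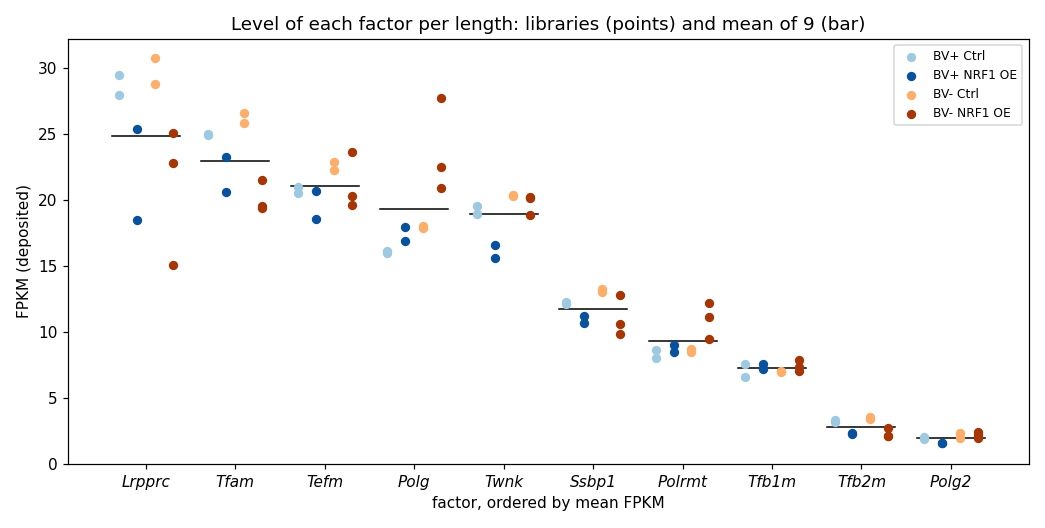
Deposited FPKM of each factor (vertical axis, from 0) in each library (points, coloured by group), with the mean of the 9 libraries as a bar, ordered by that mean. Lrpprc, Tfam, Tefm, Polg and Twnk lay together at means of 19.0 to 24.9, and Tfb2m and Polg2 lay below 4 FPKM in all libraries.

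Other nuclear genes of mtDNA upkeep were counted by list, again with and without the offsets. With NRF1 OE and no offsets, 8.02% of all genes were called in BV+ and 17.2% in BV- cells, the shares to set beside each list. Unadjusted p was under 0.05 in 5487 and 6606 of the 16903 genes. These shares and counts do not apply to the calls with the offsets, whose counts over all genes are given above. Of 10 further replication and repair genes, 0 were called by edgeR with NRF1 OE in BV+ or BV- cells (1 and 2 at unadjusted p under 0.05), with median log2 fold changes of -0.13 and 0.04. With the offsets 0 were called as well, and the medians were -0.13 and -0.13, so the direction in BV- cells turned. Of 12 genes that supply nucleotides to mitochondria, the one called was Slc25a36 in both populations, a carrier of pyrimidine nucleotides across the inner membrane. It fell from 221 ± 22.4 (SD, n = 2) to 103 ± 5.16 CPM (n = 2) in BV+ cells and from 195 ± 35.5 (n = 2) to 98.5 ± 33.6 (n = 3) in BV- cells. The log2 fold changes were -1.11 ± 0.25 and -0.98 ± 0.22 (adjusted p = 0.0312 and 0.0317 by edgeR). With the offsets they were smaller, -0.71 and -0.41, and passed the test in both (adjusted p = 0.00427 and 0.0426). The list as a whole had a median of 0.17 in BV+ and 0.18 in BV- cells. Over the 11 of its genes that had offsets, the medians with them were 0.08 and -0.07.

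Among 7 partners in termination and elongation, 1 was called in BV- cells, where 17.2% of all genes were called. This was Mrpl12, a mitochondrial ribosomal protein that also binds POLRMT, which was higher at 0.61 ± 0.14 (adjusted p = 0.0317 by edgeR). The list's median was -0.28. With the offsets Mrpl12 was at 0.13 and not called. In BV+ cells 0 of the 7 were called, against 8.02% of all genes, and the median was -0.32. At unadjusted p under 0.05 there were 2, against 5487 of the 16903 genes. With the offsets 0 of the 7 were called in either population, and the medians were -0.09 in BV+ and -0.02 in BV- cells. Of 18 genes that process or stabilise mitochondrial RNA, 1 rose in BV+ and 3 in BV- cells, where 8.02% and 17.2% of all genes were called. Hsd17b10, a subunit of the mitochondrial RNase P, rose in both, by 0.56 ± 0.14 and 0.58 ± 0.13, and with the offsets it was at 0.36 (adjusted p = 0.0454) and 0.33 (adjusted p = 0.0607). The RNA-binding proteins Fastk (0.52 ± 0.12) and Tbrg4 (0.46 ± 0.12) rose in BV- cells, and with the offsets they were at 0.13 and 0.05. Rexo2 was called higher in BV- cells only with the offsets, at 0.44 (adjusted p = 0.0446 by edgeR). The list's medians were -0.08 and -0.07, and with the offsets they turned to 0.02 and 0.05.

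Of 7 nucleoid-associated proteins, 4 were called in BV- cells, where 17.2% of all genes were called. The prohibitins Phb and Phb2 rose by 0.47 ± 0.11 and 0.42 ± 0.11, and the chaperones Hspa9 and Hspd1 fell by 0.42 and 0.51 on the log2 scale. With the offsets Hspd1 alone of these was called, at -0.44 in BV- and also at -0.41 in BV+ cells (adjusted p = 0.0459 and 0.0455), and Phb was at 0.06. Without them 0 were called in BV+ cells, against 8.02% of all genes. At unadjusted p under 0.05 there were 4, against 5487 of the 16903 genes. The list's medians of 0.10 in BV+ and 0.21 in BV- cells turned to -0.05 and -0.07 with the offsets.

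Of 11 upstream regulators, 10 were tested and Ppargc1a did not pass the filter on low counts. In BV- cells 2 of the 10 were called, where 17.2% of all genes were called. Gabpa, the DNA-binding subunit of GABP, fell by 0.86 and Sp1 by 0.57 on the log2 scale in BV- cells, which with the offsets became -0.41 (adjusted p = 0.0534) and -0.14. In BV+ cells 0 were called, against 8.02% of all genes. At unadjusted p under 0.05 there were 5, against 5487 of the 16903 genes. With the offsets 3 were called lower in BV+ cells, and the share of 8.02% does not apply to that fit. They were the GABP subunit gene Gabpb2 (-0.41, adjusted p = 0.0394 by edgeR), the zinc finger factor gene Yy1 (-0.31, adjusted p = 0.0405) and Sp1 (-0.30, adjusted p = 0.034). Yy1 was then called lower in BV- cells as well (-0.30, adjusted p = 0.0489). The list's medians were -0.20 in BV+ and -0.23 in BV- cells without and -0.26 and -0.19 with the offsets. With the offsets Nrf1 itself was higher by 0.66 ± 0.13 in BV- NRF1 OE (adjusted p = 0.0423 by edgeR), where it had been at 0.26 without them.

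Between the libraries labelled BV+ and BV- at NRF1 OE, 13.8% of all genes were called. Of these lists, 4 genes were called besides Nrf1, and all were lower in BV+. They were the nuclease Endog (-0.66), the RNA helicase Supv3l1 (-0.37), Tbrg4 (-0.39) and the coactivator Pprc1 (-0.34). Of these, all but Endog were also called with the offsets. A further 3, Exog (-0.34), Rexo2 (-0.33) and Sp1 (-0.24), were called lower in BV+ only with the offsets. At Ctrl 0 genes of these lists were called by edgeR, against 1.12% of all genes. At unadjusted p under 0.05 there was 1, in the list of RNA processing, against 1314 of the 16903 genes.

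The 13 mRNAs that mtDNA itself encodes took 2.89% to 5.02% of all counts in a library. Most of them carry short poly(A) tails, and the libraries were made from poly(A) RNA. The levels of the 13 were very uneven. In BV+ Ctrl the means were 18140 CPM for mt-Co1 and 6485 for mt-Cytb, but 60.8 for mt-Co2, 34.7 for mt-Co3 and 32.2 for mt-Atp6. They were lowest for mt-Atp8, mt-Nd4l and mt-Nd3, at 7.38, 4.32 and 3.6 CPM. The cause of these low levels was not tested. With NRF1 OE the median log2 fold change was 0.23 in BV+ cells, with 11 of 13 above 0, and -0.16 in BV- cells, with 3 of 13 above 0. In each, 0 were called by edgeR, against 8.02% and 17.2% of all genes. At unadjusted p under 0.05 there were 4 and 2, against 5487 and 6606 of the 16903 genes. The 4 in BV+ cells were mt-Nd3, mt-Co3, mt-Atp6 and mt-Atp8, all among those with low levels. There mt-Nd1, mt-Nd2, mt-Nd4, mt-Nd5, mt-Nd6, mt-Co1 and mt-Cytb lay between -0.13 and 0.23. With the offsets 0 of the 13 were called as well, and the medians were 0.43 and 0.24, so the direction in BV- cells turned. At NRF1 OE all 13 were higher in BV+ than in BV- cells, with a median of 0.43. In this comparison 13.8% of all genes were called. Of the 13, 3 were called, mt-Nd1 (0.48 ± 0.13), mt-Nd2 (0.42 ± 0.12) and mt-Cytb (0.57 ± 0.17). With the offsets 11 of 13 were above 0 with a median of 0.20, and none was called. In the same comparison the replication factor Polg was lower in BV+, with and without the offsets. At Ctrl the median was 0.07 with 0 called. These mRNAs are cut from shared precursors and are not independent of one another. Fewer mtDNA copies and less RNA per copy cannot be told apart in these libraries.

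**Figure D5:**
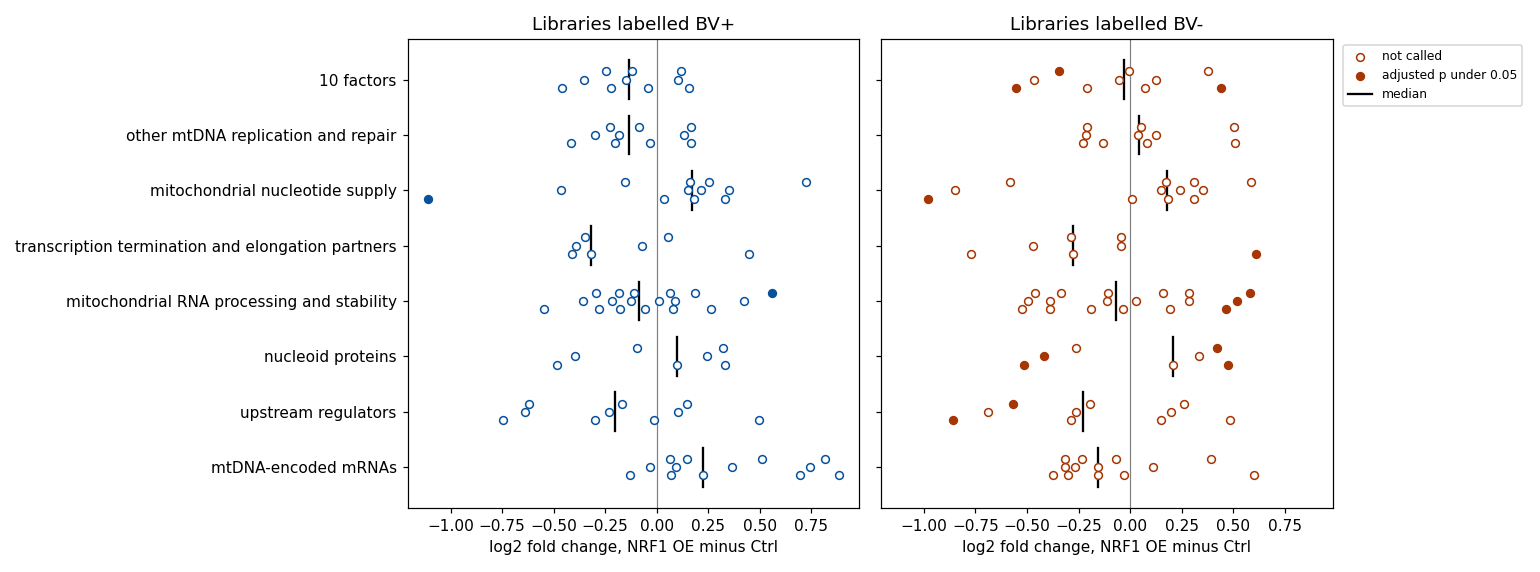
Log2 fold change of NRF1 OE minus Ctrl (horizontal axis) of each gene tested, by list (rows), in BV+ (left) and BV- libraries (right). Filled points have an adjusted p under 0.05 and vertical bars are list medians. The mRNAs of mtDNA had a median of 0.23 in BV+ and -0.16 in BV- libraries, with none called, and the latter turned to 0.24 with the GC and length offsets. Slc25a36 is the lowest point in both panels.

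For the 3 factors called in BV- cells, the genes with the most similar pattern over the 9 libraries were found by the root mean square difference of centred log2 CPM. For Tfam, whose own values varied by 0.147 (root mean square), these were D6Wsu163e and Ssr1 at 0.0404 and 0.0424. For Tfb2m, with 0.271, they were Tma16 and Rad9b at 0.0689 and 0.0752. For Polg, with 0.265, they were Prodh and Nup210 at 0.0374 and 0.0383. All 9 libraries share the group structure and the GC trend, so this is a description of the pattern only.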

How the data were processed

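RNA-seq had been made from 9 libraries in 4 groups, taken from the sample titles. RNA was enriched for poly(A), and reads were trimmed with Cutadapt per the study's methods. Per the submitters' processing notes, reads were mapped to GRCm39 with HISAT2 2.0.1 and counted per gene with HTSeq 0.6.1. The authors deposited raw counts per gene, which are not normalised, and FPKM calculated from them. The strand setting of the counting is not given in the sources used here.

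The main test was the two-sided quasi-likelihood F test of edgeR 4.0.16 (R 4.3.3). All 9 libraries entered 1 model of 4 group means, with TMM scaling, the filterByExpr filter and Benjamini-Hochberg adjustment over the 16903 genes that passed it. A gene was called at an adjusted p under 0.05. CPM are TMM-scaled. A prior count of 2 was added for log2 CPM. The SE is the log2 fold change divided by the root of F. The common biological coefficient of variation was 0.129. The procedures were tested on simulated counts. FPKM served only for levels between genes. GC content was that of GENCODE M21 transcripts on GRCm38, found for 14831 of the genes tested, and offsets were each library's lowess trends over GC content and then length. Replicates of a group differed by more than counting noise, so none was counted as a duplicate. The lowest count of a factor in a library was 82 reads (Tfb2m), where counting error weighs most.

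The 10 genes and the lists were chosen with earlier results of these data known. All 10 are named. From every other list up to 3 called genes with the smallest p are named per comparison, and genes beyond that rule (Hspd1 in BV- cells as the fourth of its list, and genes given only with the offsets) were named after their values were seen. Alternatives were DESeq2 1.42.0, its size factors, no filter, a fit of only the groups compared, a replicate block, the offsets, the study's threshold, and each library left out. Figures were drawn with matplotlib 3.10.9.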

Additional observations from a re-analysis of the deposited data

How the results depend on the processing

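Tests rested on 2 or 3 libraries a group, and the spread of a gene was mainly learned from all genes. Among the factors' log2 fold changes, 258 values under alternatives that keep all libraries kept direction and call, 13 lost and 3 gained a call and 16 reversed, and with a library left out these counts were 393, 21, 7 and 29. The cause was not tested where none is given.

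For NRF1 OE in BV- cells, the factors called fell from 3 to 0 in a fit of only the groups compared, with a replicate block, with the GC and length offsets and by the study's threshold, and lay between 0 and 6 with a library left out. All genes called (2910) became 4392 with no filter, 0 in a fit of only these groups, 0 with the block and 782 with the offsets, and ranged from 0 to 5847 with a library left out (0 without either BV+ Ctrl library or BV- Ctrl replicate 1, 1 without BV- Ctrl replicate 2, 35 without BV- NRF1 OE replicate 3 and 5847 without replicate 1). In BV+ cells 1 factor was called in a fit of only these groups (Lrpprc) and 1 with the offsets (Twnk), with a range of 0 to 1 when a library was left out. All genes called (1355) became 3440 with no filter, 4371 in the fit of only these groups, 3 with the block and 2870 by the study's threshold, and ranged from 0 to 4957. Between BV+ and BV- at NRF1 OE the 1 factor became 0 in the fit of only these groups, with the block and by the study's threshold, with a range of 0 to 4, and the genes called (2325) became 1260 and 1064 with the first of these and the block, with a range of 786 to 3182. At Ctrl 0 factors were called throughout, and the genes called (190) became 300 with DESeq2, 529 with no filter, 890 in the fit of only these groups, 121 with the block, 287 with the offsets and 971 by the study's threshold, with a range of 31 to 484. For the difference of the effects the genes called (0) became 22 with DESeq2, 108 with no filter and 757 by the study's threshold, with a range of 0 to 33.

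Whether the replicate numbers pair the libraries could not be decided. Deviations of same-numbered libraries correlated between -0.30 and 0.24. In groups of 2 libraries the deviations mirror each other, so same-numbered and crossed correlations are equal with opposite sign. The block is given only here. Same-numbered Ctrl libraries correlated at -0.10, and a block with the BV- Ctrl numbers exchanged, chosen after seeing the data, called 121 genes.

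Directions that reversed with the offsets were Tfam (0.063), Polrmt (-0.22), Ssbp1 (0.26) and Tefm (0.050) in BV+, Polrmt (-0.051), Ssbp1 (0.36) and Tefm (0.10) in BV-, Lrpprc (-0.044) between BV+ and BV- at NRF1 OE, and Tfb2m (-0.014), Ssbp1 (-0.10) and Tefm (-0.046) for the difference of the effects. With no filter Tfb1m at Ctrl (0.01) and Tefm for the difference (-0.011) reversed, with the block Tefm for the difference (-0.010), and in a fit of only the groups at NRF1 OE Tfb1m (0.0026) and Tfb2m (0.0075). With a library left out, the log2 fold change with NRF1 OE spanned 0 for Tfb1m (-0.0013 to 0.21) and Tefm (-0.11 to 0.025) in BV+ and for Polg2 (-0.046 to 0.19) and Twnk (-0.041 to 0.028) in BV- cells. Between BV+ and BV- it did so for Tfb1m at Ctrl (-0.12 to 0.10) and, at NRF1 OE, for Lrpprc (-0.20 to 0.24), Ssbp1 (-0.090 to 0.073), Tfb1m (-0.075 to 0.0077) and Tfb2m (-0.074 to 0.10). For the difference of the effects it did so for Lrpprc (-0.12 to 0.31), Tefm (-0.061 to 0.093) and Tfb1m (-0.13 to 0.081).

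Per kilobase of the longest coding transcript, chosen after seeing the data, levels became 48.1 for Lrpprc, 24.5 for Tfam, 25.3 for Tefm, 26.6 for Polg, 21.9 for Twnk, 22.4 for Ssbp1, 11.7 for Polrmt, 18.7 for Tfb1m, 3.17 for Tfb2m and 5.79 for Polg2.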
